A study of Mus musculus with 7 samples.

Results

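Named -ps genes, those whose GENCODE mouse symbol ends in -ps with or without a number, were examined in growth plate RNA of F1 mice from a cross of the inbred strains C57BL/6J (B6) and CAST/EiJ (CAST). Members were chosen by their symbol and by an estimated count, both alleles summed, of at least 10 in every mouse, which 59 of 1151 -ps genes met among the 43346 genes measured. The samples were 7 growth plate samples, 1 from each of 7 male F1 mice aged 21 days, numbered 1, 2, 3, 4, 5, 7 and 8, all untreated and of 1 condition. Each sample joined the proximal and distal tibial growth plates of a mouse, and total RNA was sequenced after ribosomal RNA was removed. Because every mouse carries both genomes, the CAST and the B6 allele of a gene were compared within each mouse. A -ps gene was also compared with its parent, the gene named before -ps, where that gene was measured. Mitochondrial counts were 0.0136% CAST on average and at most 0.0229% in any mouse, so all mothers were B6. The CAST allele was thus always the father's, and strain and parent of origin cannot be told apart.

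A processed pseudogene arises when a spliced mRNA is copied back into DNA and inserted elsewhere in the genome, which leaves a copy without introns that is usually far from its parent and has no promoter of its own. Ribosomal protein genes, which are transcribed at high levels in nearly every cell, have left very many such copies in the mouse genome. A copy that is nearly identical to its parent shares most short reads with it, so its count depends on how a read that matches both is divided between them.

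The label of processed pseudogene held for 40 of the 59 members in GENCODE release M21 (GRCm38/mm10), 36 as processed and 4 as transcribed processed pseudogenes. Of the other members, 8 were transcribed unprocessed and 3 unprocessed pseudogenes, 5 were annotated as protein-coding (Rpl10-ps3, Rps12-ps3, Nutf2-ps1, Rpl9-ps6 and Ftl1-ps1), and 1 each was a lincRNA, a polymorphic pseudogene and a transcribed unitary pseudogene. A single exon was annotated for 43 members. A parent of the stated symbol was in the files for 45 members, and 41 of these 45 lay on another chromosome than the parent. Copies of ribosomal protein genes made up 27 members, 16 of the large and 11 of the small subunit. The other 32 members included the 14 without a parent of the stated symbol. Near the minimum, Kpna2-ps, Rps2-ps9 and Dnmt3l-ps1 were just inside, the first 2 with lowest mouse totals of 10 to the nearest whole count and the last with 14, and Rpl15-ps2, Ccnb2-ps and Ifi203-ps just outside, with 8.27, 9.29 and 9.41. No count was found in any mouse for 578 of the 1151 -ps genes.

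Summed over all genes, depth was 14098019 to 37849667 estimated counts per mouse, and the members took 0.209% to 0.263% of it. The 10 members with the highest totals held 73.8% to 78.8% of the members' counts. Summed marker levels had medians of 68811 CPM (counts scaled to equal library size) for 7 chondrocyte genes and 45775 for 3 osteoblast genes. They were 4358 for 3 erythroid, 3555 for 3 muscle, 856 for 3 neutrophil and 84.5 for 2 B cell genes. The lists differ in length, and Col2a1 (median 50491) and Col1a1 (median 44131) made up most of the 2 largest sums. The sums therefore do not rank the cell types. In such bulk tissue a smaller number of cells of a type and less RNA per cell cannot be told apart. The members' summed counts were 50.6% ± 0.879 (SD, n = 7) CAST.

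Allele counts of the members fell into 3 patterns. In 20 members over 95% of the counts summed over mice lay on 1 allele, 13 on B6 and 7 on CAST, while 3.35% of the 15111 genes with a total of at least 10 in every mouse did so. In 19 members the estimated counts of both alleles were equal in every mouse to a tolerance of 1e-06, against 3.68% of those 15111 genes. The remaining 20 members had CAST shares between 11.2% and 90.01%. Equal-allele members held 53.9% of the members' counts, 1-allele members 39.0% and the rest 7.14%. The median SD of the CAST share over mice was 8.08 percentage points in the remaining members and 0.416 in the 1-allele members.

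**Figure D1:**
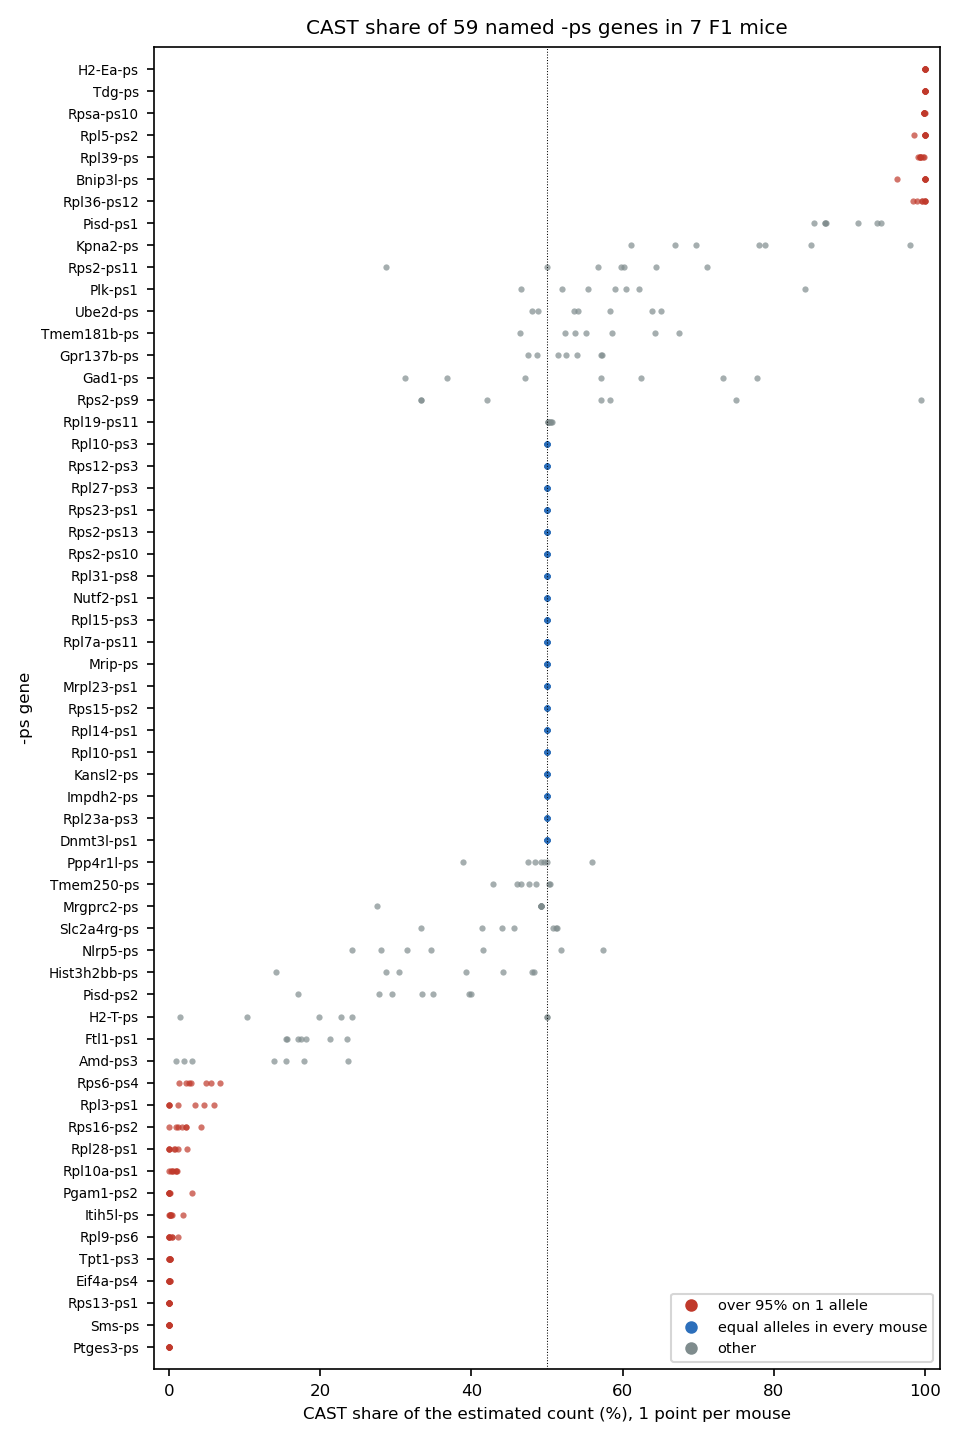
CAST share of the estimated count in percent on the x axis for each of the 59 -ps genes on the y axis, 1 point per mouse, with colour giving the allele pattern. The 20 genes in red sit against the left or right edge in nearly every mouse, the 19 in blue sit at 50% in all 7 mice, and the 20 in grey spread between them.

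Both patterns were also frequent in pseudogenes outside the list. Among 162 other GENCODE processed pseudogenes with a total of at least 10 in every mouse, 24.1% had over 95% of counts on 1 allele and 37.04% had equal alleles. Among the 37 parents that reached the minimum, 5.41% were of the first kind and 2.70% of the second. Of 82 cytosolic ribosomal protein genes, 2.44% had each pattern. Within the list, 42.5% of the 40 processed pseudogenes and 15.8% of the other 19 members had over 95% of counts on 1 allele. These shares are given as a description, with no test.

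**Figure D2:**
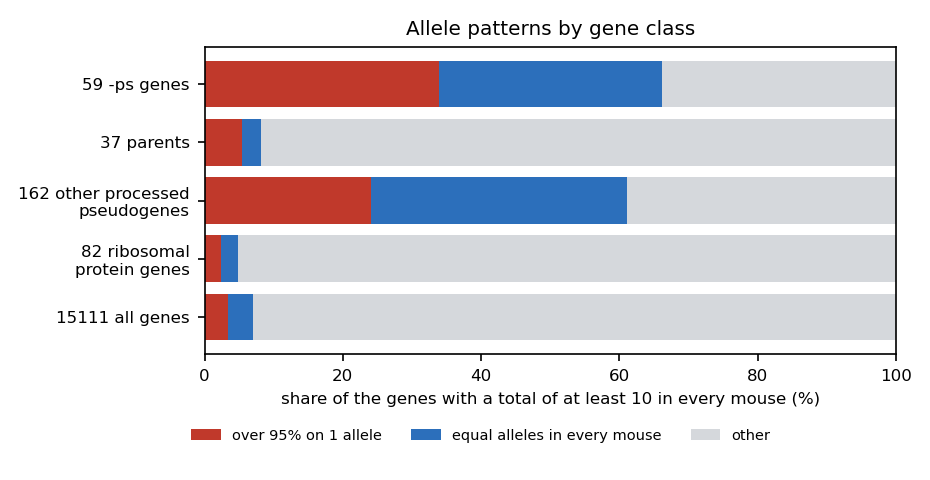
Percent of genes of each class, on the x axis, with over 95% of counts on 1 allele, with equal alleles in every mouse, or with neither, for 5 classes of genes with a total of at least 10 in every mouse. The 2 coloured patterns together fill most of the bar for the -ps genes and for the other processed pseudogenes, and little of the bar for parents, ribosomal protein genes and all genes.

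CAST and B6 counts were compared with edgeR's likelihood-ratio test over 21805 genes at a false discovery rate (FDR) under 0.20. The test called 31 of the 59 members, where 32.6% of all tested genes and 35.4% of tested genes with a total of at least 10 in every mouse were called. Higher counts on CAST were called for 12 members (15.4% of all tested genes) and higher counts on B6 for 19 (17.2%). Of the 28 members that were not called, 19 were the equal-allele members. The same allele was higher in all 7 mice for 28 members, 10 on CAST and 18 on B6, and 28.3% of the 15111 genes showed this. Any difference beyond the tolerance counted here, and 26 of the 28 members were called. Those not called were Rpl19-ps11, at 50.1% to 50.7% CAST, and Mrgprc2-ps, with a median of 49.2%. The median size of the log2 fold change, without its sign, was 0.48 in the members and 0.22 in all tested genes. The signed median was 0.02 in the members and 0.01 in all tested genes, and equal-allele members also sat at 0.02, the offset that scaling of the allele libraries gave them.

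By function, copies of large subunit genes were called in 7 of 16 cases, 3 higher on CAST and 4 on B6, and 8 of the 16 had equal alleles. Copies of small subunit genes were called in 4 of 11 cases, 1 higher on CAST and 3 on B6, and 5 had equal alleles. Among the 32 other members 20 were called, 8 higher on CAST and 12 on B6, and 6 had equal alleles. The called shares were 43.8%, 36.4% and 62.5% in this order, beside 35.4% of tested genes with a total of at least 10 in every mouse. The share of small subunit copies was thus near that of all such genes.

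Of the ribosomal members, Rpsa-ps10 (ENSMUSG00000047676), a copy of the gene for the small subunit protein SA, had the largest count among the 1-allele members. It spans 885 bases of chromosome 3, from 150072658 to 150073542 on the minus strand. Its total was lowest at 5099, had a median of 8445 and was highest at 13669. CAST counts ran from 5089 to 13653 and B6 counts from 5.2 to 16.5, so the alleles did not overlap and the CAST share was 99.79% to 99.93%. The parent Rpsa on chromosome 9, with a mean total of 21522, was 65.3% CAST. With pseudogene and parent summed the share was 75.4%.

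Rpl39-ps (ENSMUSG00000036305), a copy of a short large subunit gene on chromosome 15, also lay almost wholly on CAST. Its total was 992 to 3251 with a median of 2527, and its CAST share was 99.1% to 99.8%. The parent Rpl39 is X-linked, and in these male mice it was listed at 49.8% to 50% CAST. Rps13-ps1 (ENSMUSG00000066362), a copy of a small subunit gene, was on the B6 side. Its total was 1558 to 4096 with a median of 2586, of which CAST took at most 1.51 counts in any mouse. Its parent Rps13 leaned the same way but far less, at 12.2% CAST.

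Beside these and Rpl10a-ps1, the 1-allele ribosomal copies included 6 autosomal ones with lower counts. On CAST were Rpl36-ps12, with 182 to 415 counts and a share of 98.4% to 100%, and Rpl5-ps2, with 28.9 to 86.6 counts and 98.6% to 100%. On B6 were Rpl9-ps6, with 115 to 292 counts and at most 1.16% CAST, and Rpl28-ps1, with 27.4 to 158 counts and at most 2.42%. Rps16-ps2 and Rps6-ps4 were at most 4.25% and 6.74% CAST. Rpl28-ps1, Rps16-ps2 and Rps6-ps4 were identical to their parents. The parents Rpl36, Rpl5, Rpl9, Rpl28, Rps16 and Rps6 were at 50.7%, 67.9%, 52.6%, 51.8%, 49.98% and 44.8% CAST. All 20 members with over 95% of counts on 1 allele were called. The weakest of these calls was that of Pgam1-ps2 (FDR = 1.2e-27, edgeR), a copy of a glycolysis gene with 21.8 to 72.5 counts. It too was identical to its parent.

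To show what separates such copies from their parents, a stretch of 90 bases inside the coding sequence is printed for 3 pairs, taken from the B6 reference transcripts of GENCODE M21 where the pair differs most. Each copy is given with its GRCm38/mm10 position and read 5′ to 3′ on its own strand, and capitals mark the bases at which copy and parent differ.
Rpsa-ps10 (minus strand of chr3:150073324-150073413): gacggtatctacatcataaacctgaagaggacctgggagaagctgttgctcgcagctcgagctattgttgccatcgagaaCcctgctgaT
Rpsa: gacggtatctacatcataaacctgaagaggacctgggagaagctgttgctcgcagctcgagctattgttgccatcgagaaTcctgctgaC
Rps13-ps1 (plus strand of chr8:87048059-87048148): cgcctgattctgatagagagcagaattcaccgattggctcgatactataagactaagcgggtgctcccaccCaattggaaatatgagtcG
Rps13: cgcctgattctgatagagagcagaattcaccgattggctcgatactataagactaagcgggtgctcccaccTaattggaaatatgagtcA
Rpl39-ps (plus strand of chr15:102635045-102635134): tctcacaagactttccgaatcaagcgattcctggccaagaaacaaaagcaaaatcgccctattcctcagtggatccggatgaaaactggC
Rpl39: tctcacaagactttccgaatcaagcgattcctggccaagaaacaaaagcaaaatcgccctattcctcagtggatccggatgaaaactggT
These pairs differed at 2, 2 and 1 of the 90 bases. Over the whole aligned length Rpsa-ps10 was 99.3% identical to its parent's mRNA, Rps13-ps1 99.6% and Rpl39-ps 99.3%.

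Other copies cannot be told from the parent at all in the B6 sequence, and they were found with either allele pattern. Rpl10a-ps1 (ENSMUSG00000084416), a copy of a large subunit gene, was identical to Rpl10a over all 654 bases of its transcript. Its total was 1318 to 3912 with a median of 2128, and CAST held 0.0911% to 1.15% of it, while Rpl10a itself was 65.7% to 70.3% CAST. The sum of copy and parent was 50.8% CAST. Tpt1-ps3 (ENSMUSG00000084319), a copy of the gene for translationally controlled tumour protein, was identical to Tpt1 over 519 bases. Its total was 1578 to 4205 with a median of 3030, and its CAST count was at most 7.10 in any mouse. Tpt1 was 49.5% to 51.2% CAST, and the sum of both was 38.8%.

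The members with the highest and the third highest totals had equal alleles and were identical to their parents over the aligned length. Rpl10-ps3 (ENSMUSG00000058443) copies a large subunit gene and had 7481 to 18279 counts, with a median of 12682, of which each allele held 50%. Its X-linked parent Rpl10 was 39.0% to 40.9% CAST. Rps12-ps3 (ENSMUSG00000067038) copies a small subunit gene and had 4719 to 11444 counts, with a median of 7642, again 50% on each allele. Its parent Rps12, at 3846 to 9874 counts, was 98.6% to 99.4% CAST. The first 90 bases of the coding sequence are printed for Tpt1-ps3, Rpl10-ps3 and Rps12-ps3 in lower case throughout, since no base differs from the parent, so that the like sequences can be read beside the unlike allele shares.
Tpt1-ps3 and Tpt1 (copy on the minus strand of chr6:99878245-99878334): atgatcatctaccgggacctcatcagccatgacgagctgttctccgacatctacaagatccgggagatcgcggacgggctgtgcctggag
Rpl10-ps3 and Rpl10 (copy on the minus strand of chr9:50344852-50344941): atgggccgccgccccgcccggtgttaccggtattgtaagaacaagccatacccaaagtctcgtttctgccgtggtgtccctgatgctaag
Rps12-ps3 and Rps12 (copy on the plus strand of chr19:59322371-59322460): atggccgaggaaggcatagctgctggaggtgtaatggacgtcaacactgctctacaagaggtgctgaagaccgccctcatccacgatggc

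Other equal-allele members among the highest totals were Rpl27-ps3, Rps23-ps1 and Rps2-ps13. Rpl27-ps3, a large subunit copy, had 1951 to 5280 counts with 50% on each allele, while Rpl27 was 86.3% to 90.8% CAST. Rps23-ps1, a small subunit copy, had 1189 to 3767 counts, and Rps23 was 44.5% to 48.6% CAST. Mrpl23-ps1, a copy of a gene of the mitochondrial ribosome, had 179 to 466 counts at 50%, and Mrpl23 was 83.4% to 95.8% CAST. Parents of equal-allele members were thus spread from 20.01% (Rps15) to 98.9% (Rps12) CAST, and 9 of the 15 distinct parents that reached the minimum lay between 40% and 60%.

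The rest of the equal-allele members were Rpl31-ps8, Nutf2-ps1, Rpl15-ps3, Rpl7a-ps11, Mrip-ps, Rps2-ps10, Rps15-ps2, Rpl14-ps1, Rpl10-ps1, Kansl2-ps, Impdh2-ps, Rpl23a-ps3 and Dnmt3l-ps1. Their mean totals ran from 29 for Dnmt3l-ps1 to 1381 for Rps2-ps10. Rpl31-ps8 was the member of this pattern whose parent had equal alleles too, with Rpl31 at 3694 to 9273 counts and 50% CAST in every mouse. Rpl19-ps11, a large subunit copy, came close to the pattern with a CAST share of 50.1% to 50.7%.

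Rps2, a small subunit gene with a CAST share of 37.5%, was the only parent with at least 3 copies in the list, and its 4 copies showed different patterns. Rps2-ps13 and Rps2-ps10 had mean totals of 1577 and 1381 and equal alleles in every mouse. Rps2-ps11 and Rps2-ps9 had mean totals of 34.6 and 31.8, with CAST shares that ranged from 28.7% to 71.2% and from 33.3% to 99.4%. Neither of the last was called, with FDR values of 0.29 and 0.98 from edgeR, though Rps2-ps11 was called with the mouse as a block (FDR = 0.18) and without mouse 8 (FDR = 0.091).

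Among the 1-allele members that are not ribosomal copies, the highest count after that of Tpt1-ps3 was that of Eif4a-ps4, a copy related to the RNA helicase genes of translation initiation, with 771 to 2282 counts and at most 2.90 of them on CAST. Ptges3-ps, a copy of the Hsp90 co-chaperone gene p23, had 68.9 to 223 counts, and its CAST estimate was at or next to 0 in every mouse. With 0 of 956 counts in all mice, a floor of 3 counts would allow a CAST share of up to 0.314%, or B6 at least 319-fold higher. The copy was identical to Ptges3 over 480 bases, so its counts depend on the division of reads, which the floor does not cover. Tdg-ps, a copy of the thymine DNA glycosylase gene, lay on the opposite allele, with 32.5 to 66.4 counts, all on CAST. B6 was at 0 of 341 for Tdg-ps, which allows up to 0.881%. Bnip3l-ps, a copy of a mitophagy receptor gene, had 22.8 to 171 counts and a CAST share of 96.3% to 100%. The parents Ptges3, Tdg and Bnip3l were at 48.7%, 49.5% and 55.1% CAST.

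H2-Ea-ps (ENSMUSG00000036322) is a class II histocompatibility gene on chromosome 17. It differed from these members in that no stretch of its B6 transcript as long as a read occurred unchanged in another gene. B6 mice carry a haplotype that is known to make no Ea transcript, and the locus is annotated as a polymorphic pseudogene. Its totals were whole numbers from 137 to 404 with a median of 195, and all were on CAST. B6 was at 0 of 1530 counts summed over the mice, which allows a B6 share of up to 0.196%, and CAST was at least 510.0-fold higher. Floors of this kind cover counting error only, and not the division of reads between a copy and its parent.

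A smaller set of members was called at intermediate shares. In most of them, only a minority of stretches as long as a read occurred unchanged in a transcript of another gene. The exceptions were Amd-ps3 (100% of such stretches), Ftl1-ps1 (80.2%) and Nlrp5-ps (59.9%). Sequence that is alike but not identical is left out by this measure. Pisd-ps1, for example, was 95.2% identical to Pisd over the aligned length, and Kpna2-ps was 94.9% identical to Kpna2. Pisd-ps1 and Pisd-ps2 are copies of the gene for the mitochondrial enzyme that makes phosphatidylethanolamine, and they moved in opposite directions. Pisd-ps1 had 289 to 1157 CAST counts against 44.0 to 127.5 on B6, without overlap, and a log2 fold change of 3.10 (FDR = 9.7e-70, edgeR). Pisd-ps2 had 14.03 to 59.2 CAST counts against 33.6 to 89.98 on B6, with a log2 fold change of -1.10 (FDR = 5.7e-09, edgeR). B6 was higher in every mouse for Pisd-ps2, although the ranges overlapped. The parent Pisd was at 49.0% CAST.

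Ftl1-ps1, a copy of the ferritin light chain gene, was 15.4% to 23.5% CAST in all mice, with a log2 fold change of -2.04 (FDR = 1.1e-09, edgeR), and Ftl1 was 50.8%. Kpna2-ps, a copy of an importin gene, had a log2 fold change of 1.85 (FDR = 0.00013, edgeR) on a mean total of 20.3. Amd-ps3, a copy from the polyamine pathway, was 0.911% to 23.7% CAST. Differences were also called for Tmem181b-ps (0.41), Ube2d-ps (0.38), Plk-ps1 (0.54), Hist3h2bb-ps (-0.77), Nlrp5-ps (-0.64) and H2-T-ps (-1.55), as log2 fold changes of CAST over B6. Of these, only Hist3h2bb-ps had the same allele higher in all 7 mice. CAST was higher in 6 mice for Tmem181b-ps and Plk-ps1 and in 5 for Ube2d-ps. B6 was higher in 5 mice for Nlrp5-ps and for H2-T-ps, which was 50% CAST in mice 3 and 7. The Plk-ps1 call was lost without mouse 4 (FDR = 0.34, log2 fold change 0.33) and with the mouse as a block in the quasi-likelihood test (FDR = 0.202), and the Ube2d-ps call was lost without mouse 2 (FDR = 0.23, log2 fold change 0.29). With the mouse as a block, Tmem250-ps (log2 fold change -0.13, FDR = 0.082), Gpr137b-ps (0.21, FDR = 0.041) and Rpl10-ps3 (0.02, FDR = 0.17) were called as well, the last at the scaling offset of genes with equal alleles.

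Of the 20 members of neither extreme pattern, 9 were not called. Besides Rps2-ps9, Rps2-ps11, Rpl19-ps11, Tmem250-ps and Gpr137b-ps, these were Ppp4r1l-ps, Slc2a4rg-ps, Mrgprc2-ps and Gad1-ps, with FDR values of 0.44 to 0.86 from edgeR for the last 4 and CAST shares of summed counts from 46.5% to 51.8%. Gad1-ps, a copy of a gene for the enzyme that makes GABA, ranged from 31.2% to 77.8% CAST between mice on 16 to 56 counts, and neither allele was higher throughout. Tmem250-ps, a lincRNA with 636 to 1766 counts, was 42.9% to 50.4% CAST.

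X-linked members gave a contrast with their chromosome. The mice are male and carry 1 X chromosome, and counts over all X-linked genes were 8.89% ± 0.468 (SD, n = 7) CAST. Of 461 X-linked genes with a total of at least 10 in every mouse, 342 had over 95% of counts on B6. Summed over the 5 X-linked members, the CAST share was 34.5% ± 1.70 (SD, n = 7), from 32.7% to 37.6%. Rps2-ps13 (750 to 2347 counts) and Rpl7a-ps11 (207 to 601 counts), copies of a small and a large subunit gene, were 50% CAST in every mouse, a share that 26 of the 461 X-linked genes also showed. Their parents Rps2 and Rpl7a are autosomal.

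The other 3 X-linked members lay on B6 like most of the chromosome. Itih5l-ps, related to the heavy chains of the inter-alpha-trypsin inhibitors, had 358 to 1083 counts and a CAST share of 0.0619% to 1.83%. No stretch of its B6 transcript as long as a read occurred unchanged in another gene. Rpl3-ps1 copies a large subunit gene and had 76.7 to 260 counts, with CAST at 0.000634% to 6.00%, while its autosomal parent Rpl3 was 57.1% to 60.04% CAST. Sms-ps, a copy of the spermine synthase gene, had 46.0 to 104 counts with 0 of 530 on CAST over the mice, which allows up to 0.566%. It was identical to Sms over 1101 bases, so this floor too leaves out the division of reads. Its parent Sms is X-linked as well and was 0.158% to 1.17% CAST, so that this pair did not differ beyond the spread between mice.

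The question whether a copy follows the allele ratio of its parent was tested in the 42 pairs whose parent had at least 10 counts in every mouse, as the difference of log2 CAST over B6 ratios with a pseudocount of 0.5. In 35 pairs the difference had the same sign in all 7 mice, 17 with the copy more CAST than the parent and 18 with the copy more B6. For each of these the exact two-sided sign-flip permutation test gave p = 0.0156, the smallest that 7 mice allow, without adjustment over the 42 pairs. In 13 of the 35 the copy had equal alleles, so that the difference is the parent's own departure from balance. Such copies of the same parent repeat 1 value, as Rpl10-ps1 and Rpl10-ps3 (0.604) and Rps2-ps13 and Rps2-ps10 (0.733) did. The pairs counted are therefore not all independent. In 22 of the 25 pairs whose copy did not have equal alleles the sign was the same in every mouse.

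The differences farthest from 0 were those of Tpt1-ps3 (-10.47 ± 1.45, SD, n = 7), Rpl10a-ps1 (-8.61 ± 1.15), Rps13-ps1 (-8.28 ± 1.08), Ptges3-ps (-7.89 ± 0.79) and Rpl9-ps6 (-7.89 ± 0.88) on the B6 side. On the CAST side they were those of Rpsa-ps10 (8.66 ± 0.54), Rpl36-ps12 (7.69 ± 1.33), Rpl39-ps (7.61 ± 0.77), Tdg-ps (6.62 ± 0.33) and Bnip3l-ps (5.95 ± 1.15). These sizes depend on the pseudocount, because the lower allele is near 0. The 7 pairs without a common sign were Rps2-ps9, Rps2-ps11, Sms-ps, Nutf2-ps1, Kansl2-ps, Impdh2-ps and Rpl31-ps8, the last with equal alleles in copy and parent. Rps2-ps11 was above Rps2 in 6 of 7 mice (p = 0.0312) and Rps2-ps9 in 5 of 7 (p = 0.0625) by the same exact test.

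**Figure D3:**
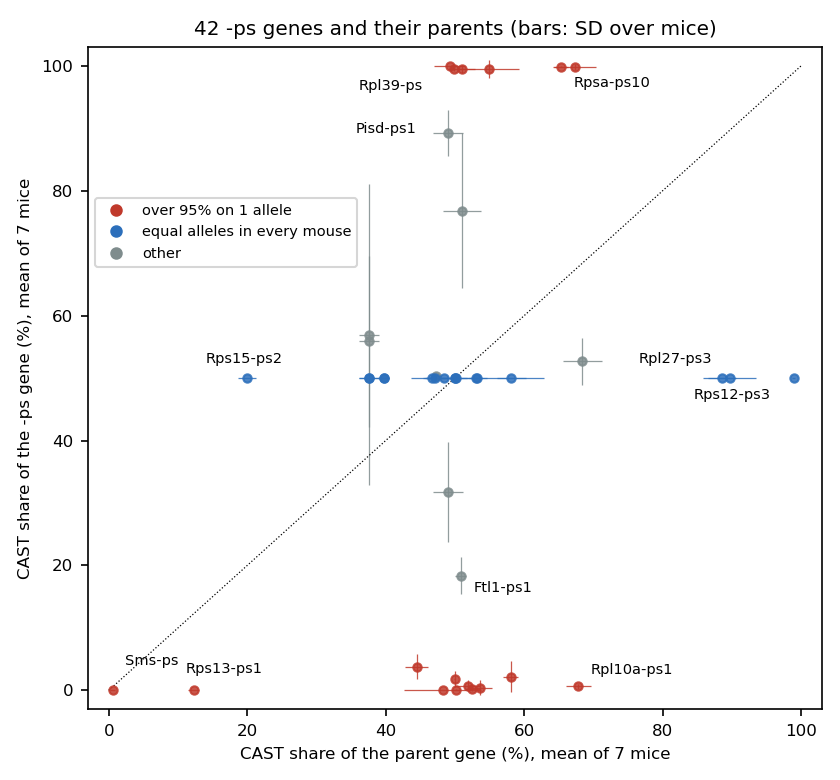
CAST share of the -ps gene in percent on the y axis against that of its parent on the x axis, means of 7 mice with SD bars, for the 42 pairs whose parent had at least 10 counts in every mouse. Few points lie on the dotted line of equal shares, since the copies gather at 0%, 50% and 100% while most parents lie between 35% and 70%.

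Parents of the 17 pairs with a 1-allele copy lay between 0.529% (Sms) and 67.9% (Rpl5) CAST, and 12 of them between 40% and 60%. When copy and parent were summed, the CAST share was nearer to 50% than that of the parent alone in 5 of these 17 pairs and farther from it in 12. Rpl10a and Rpl10a-ps1 are an example of the former, and Tpt1 and Tpt1-ps3 of the latter.

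Levels are given next per kb of exon, as the count of the -ps gene over that of its parent, which describes the totals used to choose the members and was not tested. The median ratio over the 42 pairs was 0.182, with a range from 0.00410 for Rps2-ps9 to 10.7 for Mrpl23-ps1. The ratio was above 1 for 13 members and under 0.1 for 15. By lengths of the longest transcripts, 9 were above 1, and by counts without length only 5 were higher than the parent. After Mrpl23-ps1 (10.7 ± 0.473, SD, n = 7) the highest ratios were those of Rpl27-ps3 (7.57 ± 0.697), Nutf2-ps1, a copy of a nuclear transport factor gene (6.42 ± 0.192), Rpl39-ps (5.02 ± 1.16) and Rps12-ps3 (4.87 ± 0.132). The annotated exons of these parents were longer than those of the copies, with 4883 against 580 bases for Mrpl23. Mean totals of copy and parent were 297 and 236 for Mrpl23-ps1, 3130 and 1518 for Rpl27-ps3, and 641 and 227 for Nutf2-ps1. They were 7619 and 6444 for Rps12-ps3, but 2271 and 4249 for Rpl39-ps, which was below its parent by counts. The lowest were those of Rps2-ps9 (0.00410 ± 0.00278), Rpl19-ps11 (0.00438 ± 0.00178), Rps2-ps11 (0.00462 ± 0.00214), Ftl1-ps1 (0.00889 ± 0.00363) and Rpl23a-ps3 (0.00966 ± 0.00375). For Nlrp5-ps, Dnmt3l-ps1 and Gad1-ps no ratio is given, because the parent was under 10 counts in at least 1 mouse, and Nlrp5 was next to 0.

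Scaled to library size, the members varied between mice with a coefficient of variation of 5.05% to 54.6% and a median of 17.5%.

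**Figure D4:**
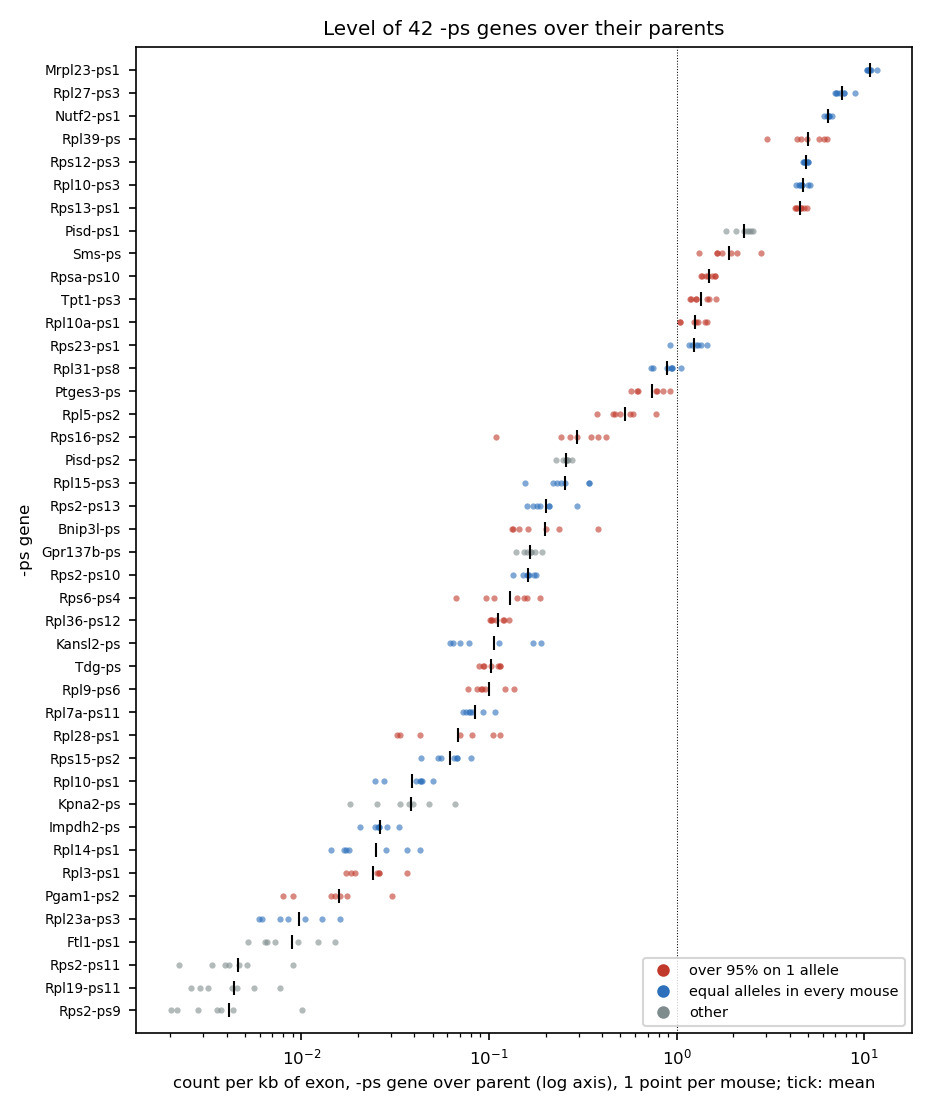
Ratio of counts per kb of exon, -ps gene over parent, on a log x axis for 42 pairs on the y axis, 1 point per mouse with a tick at the mean. The ratios run from 0.00410 to 10.7, and genes with over 95% of counts on 1 allele and with equal alleles occur from high to low ratios.

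How far the sequences of the members overlap with other genes was measured on the B6 transcripts, as the percent of 75-base windows of a member, the read length, that occur unchanged in a transcript of another gene. The median was 81.2% over the 59 members, with all windows shared in 16 members and none in 7. Equal-allele members had a median of 95.3%, and 17 of 19 were above 50%, the exceptions being Rps15-ps2 (11.5%) and Dnmt3l-ps1 (0%). The 1-allele members had a median of 89.1%, with 14 of 20 above 50%, and the remaining members a median of 6.74%, with 4 of 20 above 50%. CAST sequences were not used here, and alignment allowed mismatches, so that reads can match more genes than these windows show.

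**Figure D5:**
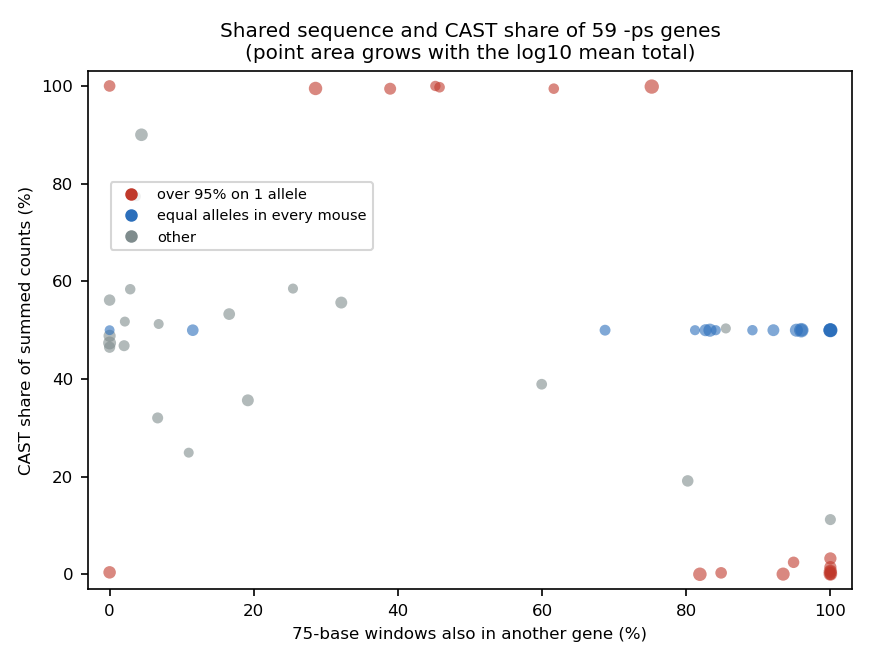
CAST share of summed counts in percent on the y axis against the percent of 75-base windows also found in another gene on the x axis, 1 point per -ps gene with its area growing with the log10 mean total. Most grey points lie at low percentages of shared windows, and most red and blue points lie above 50%.

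A total that is not a whole number can arise where reads were divided with another gene. In 55 of the 59 members the total was not whole in at least 1 mouse, to a tolerance of 0.0001, against 48.9% of the 15111 genes. The trait was not particular to the members. It was found in 100% of the 37 parents, 90.2% of the 82 cytosolic ribosomal protein genes and 89.5% of the 162 other processed pseudogenes. The 4 members with whole totals in all mice were Ppp4r1l-ps, H2-Ea-ps, Slc2a4rg-ps and Dnmt3l-ps1, and none of them shared a window with another gene. The other 3 members without a shared window nevertheless had totals that were not whole, Tmem250-ps in 7 mice, Itih5l-ps in 3 and Ube2d-ps in 2. Ppp4r1l-ps, with 216 to 602 counts, was 38.8% to 56.0% CAST, and Slc2a4rg-ps, with 77 to 196 counts, was 33.3% to 51.3% CAST. Neither was called, with FDR values of 0.86 and 0.44 from edgeR. Dnmt3l-ps1, with 14 to 53 counts, had each total split equally between the alleles. What part the division of reads, or the number of differences between the B6 and CAST sequences of a copy, had in the allele shares was not tested.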

How the data were processed

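RNA was measured in growth plates of 7 F1 mice. The authors aligned reads by Bowtie against B6 (mm10) and CAST transcriptomes together, kept all best alignments of at most 3 mismatches, and deposited EMASE's estimated counts for each allele of a gene. EMASE divides a read that matches several genes or both alleles by iteration, and a gene in which no read favours an allele receives equal estimates. Whether read strand was used in counting is not given in the sources used here. Gene names, classes and coordinates came from GENCODE M21, which held 42462 of 43346 identifiers.

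A gene was tested where each mouse had any count above 0 on either allele, however small. Alleles were compared on rounded counts in edgeR 4.0.16 (run under R 4.3.3), with TMM factors per allele library, glmFit, glmLRT and Benjamini-Hochberg adjustment over all tested genes. Both alleles of a mouse come from the same animal, and the fit with the mouse as a block was an alternative, beside a quasi-likelihood test, DESeq2 1.42.0, other scalings, filters and thresholds, and each mouse left out. The members and gene lists were chosen with earlier results of these data known.

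Genes were named by a rule on totals, calls in each direction with the same sign in every mouse, sex linkage, allele patterns, level over parent and closeness to the minimum. Intermediate calls and sequence neighbours outside the rule were named after their values were seen. Depth was 14098019 to 37849667 counts per mouse, so members with few counts carry wide counting error.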

Additional observations from a re-analysis of the deposited data

Results flagged for a closer look

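Over the 7 mice, 82 sets of values were examined for a mouse that stood far from the others, namely the log2 allele ratios of 40 members and the levels over parent of 42 pairs. The rule would flag about 1 in 20 sets of independent, normally distributed values, and 10 were flagged. Ratios with an allele near 0 and levels that share a parent do not meet these conditions. The 10 are therefore not read as more than chance gives. Mouse 8 stood apart in 3 allele ratios (log2 CAST over B6 with a pseudocount of 0.5). Rps16-ps2 was at -9.81 there and between -6.53 and -4.34 in the other mice. Its CAST estimate in mouse 8 was 0.00335 on a total of 452 counts, so the size of that ratio depends on the pseudocount. In the same mouse, Mrgprc2-ps was at -1.38 against -0.05 to -0.04, and Rps2-ps9 was at 4.80 against -0.96 to 1.42 on a total of 16.1 counts. Plk-ps1 was at 2.30 in mouse 4 against -0.19 to 0.70, on a total of 34.3 counts.

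Among the levels over parent, mouse 5, the most deeply sequenced, was high for Rpl27-ps3 (8.97 against 6.97 to 7.77) and for Bnip3l-ps (0.381 against 0.132 to 0.236). Mouse 1 was high for Rps2-ps13 (0.293 against 0.160 to 0.209), Rps2-ps11 (0.00897 against 0.00221 to 0.00512) and Rps2-ps9 (0.0101 against 0.00202 to 0.00430), which share the parent Rps2. Mouse 4 was high for Pgam1-ps2, a copy of a glycolysis gene (0.0305 against 0.00800 to 0.0174). The cause was not tested.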

How the results depend on the processing

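The count of members called between alleles was 31 in the reported fit, 28 to 35 under the other tests, scalings, filters and thresholds, with 28 for autosomal genes alone, where the X-linked members were not fitted, and 35 for the mouse as a replicate block, and 30 to 32 without 1 mouse. A filter that took estimates under 1e-09 as 0, added after seeing the data, left 20235 genes and again called 31. No called member changed direction under any of these alternatives, and the calls of Plk-ps1 and Ube2d-ps were the ones lost in some. Members with over 95% of counts on 1 allele numbered 17 to 21 under other shares, 18 with the share required in every mouse, and 20 without any 1 mouse. With a total of at least 100 in every mouse, which 30 members reached, 11 had over 95% on 1 allele and 28 had totals that were not whole. Totals that were not whole numbered 54 to 55 without 1 mouse. Pairs with a common sign numbered 35 to 36 under other pseudocounts and without 1 mouse, and 25 of 27 with totals of at least 50. The median level over parent moved from 0.182 to 0.144 with longest transcripts, 0.0892 without length and 0.201 with the highest copy of each parent, and was 0.166 to 0.186 without 1 mouse. The CAST share of the X-linked members was 34.0% to 34.8% without 1 mouse. Depth limits members near the minimum, where 1 read moves a mouse's share by several percentage points.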
